A study of Homo sapiens with 16 samples.

Results

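The genes described here are 10 components of the NF-kB pathway, chosen by name: the subunit genes NFKB1, NFKB2, RELA and RELB, the IkB family genes NFKBIA, NFKBIE and NFKBIZ, the feedback genes TNFAIP3 and BIRC3, and the TNF-inducible gene TNFAIP2. All 10 were found among the 20356 genes of the count table, and all 10 passed the filter on low counts in every comparison. RNA was sequenced from the human prostate cancer line PC3, either cultured as a monolayer or grown as xenografts, in which the human cells form a tumor in an animal. Both settings had 4 control libraries and 4 libraries labelled DDX4 NULL. DDX4 encodes a germ cell RNA helicase, and the labels name no other agent or allele. The sources used here do not give the host animal, its age, the time of growth, the number of clones behind the DDX4-null cells, or whether libraries came from separate cultures or animals. The p-values therefore reflect the spread between libraries alone, and that spread may be technical.

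NF-kB transcription factors are pairs of Rel family proteins. In resting cells IkB proteins hold them in the cytoplasm, and IkB kinase marks IkB for breakdown when a cytokine or Toll-like receptor is engaged, which frees the subunits to enter the nucleus. RELA with the p50 product of NFKB1 is the classical pair, and RELB with the p52 product of NFKB2 is the pair of the slower noncanonical arm. The factor also drives its own brakes: NFKBIA, TNFAIP3 and several subunit genes are textbook NF-kB targets. PC3 cells are known for constitutive NF-kB activity.

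Library totals ran from 12204254 to 25443952 counts. DDX4 itself held 0 to 5 counts in every library of every group, so its RNA did not check the genotype labels. All 5 epithelial markers (KRT8, KRT18, KRT19, EPCAM and CDH1) were detected, with summed levels of 848 to 983 CPM (counts scaled to a library of 1000000) in control cells and 1431 to 1735 CPM in DDX4-null cells. In tumors these sums were 1214 to 1368 CPM for controls and 1184 to 1645 CPM for DDX4-null libraries. Tumors also carried RNA of other cell types. Summed fibroblast markers were 23.7 to 48.9 CPM in cells, 1376 to 1876 CPM in control tumors and 1655 to 10944 CPM in DDX4-null tumors, and summed leukocyte markers were 1.33 to 2.73 CPM in cells and 13.8 to 71.3 CPM in tumors. Summed skeletal muscle markers were 0.464 to 1.27 CPM in cells and 5.73 to 247 CPM in tumors, and the B cell marker MS4A1 was at 0 in all libraries.

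In monolayer, 9 of the 10 genes were lower in DDX4-null than in control cells by edgeR's quasi-likelihood test, by 1.22-fold for TNFAIP3 to 3.61-fold for RELB, and NFKBIE was not called. Across all 13006 genes tested, 32.3% were called lower, 35.0% higher and 67.3% in either direction. The median log2 change of the 10 genes was -0.76, against 0.02 over all genes tested. In tumors none of the 10 was called between genotypes, against 2.09% of all genes tested. An unadjusted p under 0.05 was found for 3 of the 10 and for 21.3% of all genes. DESeq2 called those 3, as it called 6.80% of all genes, and a 4-group edgeR model of all 16 libraries called them too, with 5.94% of all genes. Control tumors were lower than control cells for 9 of the 10 genes, where 31.0% of all genes tested were called lower and 64.9% in either direction. The summed level of the 10 genes was 957 ± 44.1 CPM (SD, n = 4) in control cells, 501 ± 21.6 CPM in DDX4-null cells, 432 ± 31.0 CPM in control tumors and 476.0 ± 8.18 CPM in DDX4-null tumors. Control cells thus stood apart from the other groups, whose sums ran from 390 to 526 CPM.

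**Figure D1:**
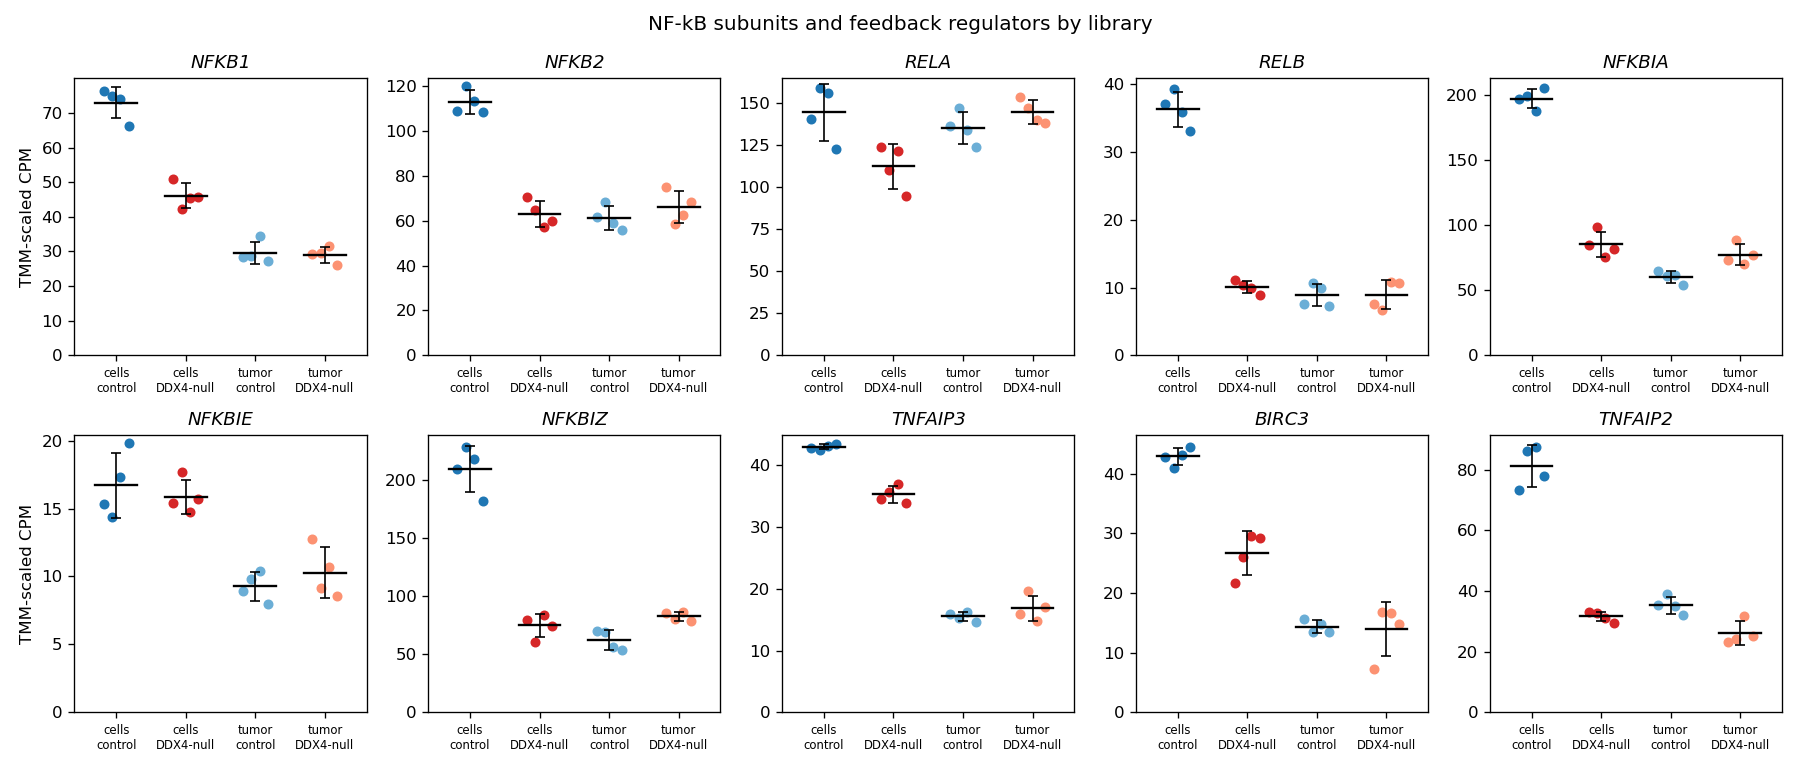
Level of each of the 10 genes in all 16 libraries, in TMM-scaled CPM (vertical axes start at 0); points are libraries, horizontal lines group means and error bars SD over 4 libraries. RELB, NFKBIA, NFKBIZ and TNFAIP2 sit high in control cells and low in the other 3 groups, while RELA lies between 94.6 and 159 CPM throughout.

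The promoters of several of these genes hold matches to the kappaB consensus, the short sequence that NF-kB pairs bind. RefSeq promoter windows of the GRCh38.p14 build, from 250 bases before to 50 bases after each annotated start, were searched on both strands for the 10-base consensus by its IUPAC form. A match was found in 3956 of 35116 windows (11.3%) and in 3619 of 27305 genes (13.3%). Of the 10 genes, 8 had a window in the table, and 6 of these held a match: NFKB1, NFKB2, NFKBIA, NFKBIZ, TNFAIP3 and BIRC3. The windows of RELA and TNFAIP2 held none, which says only that these letters do not occur there. The stretches below are shown because they carry matches of genes that were lower in DDX4-null cells. Capitals mark the match, lower case its neighbours, and all are written 5′ to 3′ on the strand of the gene.
NFKB1, chr4:102501280-102501349, plus strand: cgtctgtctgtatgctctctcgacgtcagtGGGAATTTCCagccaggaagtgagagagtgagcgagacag
NFKBIA, chr14:35404791-35404860, minus strand: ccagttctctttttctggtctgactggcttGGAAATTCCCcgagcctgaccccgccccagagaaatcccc
NFKBIZ, chr3:101827740-101827806, plus strand: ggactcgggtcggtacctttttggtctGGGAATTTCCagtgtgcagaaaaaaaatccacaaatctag
BIRC3, upstream match, chr11:102317255-102317324, plus strand: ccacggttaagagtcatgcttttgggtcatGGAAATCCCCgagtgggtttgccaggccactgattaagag
BIRC3, downstream match, chr11:102317319-102317388, plus strand: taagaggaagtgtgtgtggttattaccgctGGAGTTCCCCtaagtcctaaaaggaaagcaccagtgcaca
TNFAIP3, the pair of matches alone, chr6:137867192-137867213, plus strand: GGAAAGTCCCgtGGAAATCCCC
NFKB2, match nearest to a start, chr10:102395684-102395693, plus strand: GGGACTTTCC

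The match of NFKB1 lay 49 to 40 bases before the annotated start and the match of NFKBIA 81 to 72 bases before it. The TNFAIP3 pair spanned bases -67 to -46, with both matches read on the minus strand. The BIRC3 matches lay at -199 to -190 and -135 to -126, also on the minus strand. NFKBIZ had a match in each of 2 windows, and the one shown lay 223 to 214 bases before its start. NFKB2 had 5 matches in 2 windows, of which 2 overlapped, and the one shown lay 21 to 12 bases before a start. NFKB1 and NFKBIZ shared the same 10 letters, GGGAATTTCC, and BIRC3 and TNFAIP3 shared GGAAATCCCC. In the GENCODE v29 annotation of the same gene, the last 21 of the 70 bases shown for NFKB1 fell in exons, and none of the bases shown for NFKBIA, NFKBIZ and BIRC3 did. All 22 bases shown for TNFAIP3 and 1 of the 10 shown for NFKB2 fell in exons. A match is a description of sequence, and binding was not tested.

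Among the subunit genes, RELB changed most. Control cells held 37.2, 39.3, 35.8 and 33.1 CPM of RELB and DDX4-null cells 11.1, 10.4, 9.89 and 8.90 CPM. All 4 control libraries were far above all 4 DDX4-null libraries, and the groups did not overlap. The log2 change was -1.85 ± 0.11 (SE; edgeR adjusted p = 2.58e-11), which is 3.61-fold lower. Control tumors held 7.64, 10.7, 9.97 and 7.35 CPM and DDX4-null tumors 7.61, 6.76, 10.8 and 10.7 CPM. Both tumor groups overlapped the DDX4-null cells and each other (log2 change 0.01 ± 0.20, adjusted p = 0.987). A lower level in bulk RNA can come from fewer cells of a type or from less RNA per cell, and these cannot be told apart here.

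NFKB2 and NFKB1, the genes of the p52 and p50 precursors, were lower in DDX4-null cells without overlap. NFKB2 stood at 109, 120.1, 113 and 109 CPM in control cells and at 70.5, 64.7, 57.2 and 60.0 CPM in DDX4-null cells. All 4 control libraries were above all 4 DDX4-null libraries, and the log2 change was -0.84 ± 0.10 (adjusted p = 2.45e-07). NFKB1 stood at 76.2, 75.0, 74.1 and 66.3 CPM in control cells and at 51.1, 42.2, 45.4 and 45.6 CPM in DDX4-null cells, with a log2 change of -0.66 ± 0.10 (adjusted p = 6.59e-06). Tumor levels of the pair differed in place. NFKB2 in tumors (61.7, 68.4, 58.9 and 55.7 CPM in controls, 74.9, 58.4, 62.7 and 68.1 CPM in DDX4-null) overlapped the DDX4-null cells. NFKB1 in tumors (28.3, 28.8, 34.3 and 27.2 CPM in controls, 29.4, 29.5, 31.4 and 26.0 CPM in DDX4-null) lay below every monolayer library. Neither differed between tumor genotypes, with log2 changes of 0.11 ± 0.10 for NFKB2 and -0.03 ± 0.10 for NFKB1 (adjusted p = 0.554 and 0.874).

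RELA, the main transactivating subunit, changed least among the called genes apart from TNFAIP3. Its levels were 140.4, 159, 156 and 123 CPM in control cells and 124, 110.1, 122 and 94.6 CPM in DDX4-null cells. The groups overlapped, since control library 4 lay below DDX4-null library 1. The log2 change was -0.36 ± 0.11 (adjusted p = 0.00706), and relative to the median of the 51 genes around it on chromosome 11 it was -0.03. Control tumors held 137, 147, 134 and 124 CPM and DDX4-null tumors 154, 147, 140.2 and 138 CPM, which overlapped (log2 change 0.10 ± 0.08, adjusted p = 0.522).

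Scaled by exon length and to RELA in the same library, RELB was 0.455 ± 0.0331 (SD, n = 4) in control cells, 0.162 ± 0.0112 in DDX4-null cells, and 0.118 ± 0.0169 in control and 0.112 ± 0.0309 in DDX4-null tumors. The ratio of NFKB2 to NFKB1 was 2.16 ± 0.128 in control cells and 1.92 ± 0.165 in DDX4-null cells, ranges that overlapped. In tumors it was higher, at 2.90 ± 0.388 and 3.19 ± 0.485, and every tumor library exceeded every monolayer library. These ratios were not tested, and they use the union of exons of GENCODE v29 on GRCh38, while the counts were made on GRCh37 and the annotation used for them is not given.

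NFKBIA encodes IkBα, the inhibitor that NF-kB resynthesises after each round of activation. Control cells held 197, 199, 188 and 205 CPM and DDX4-null cells 84.8, 98.7, 75.9 and 81.6 CPM. All control libraries lay well above all DDX4-null libraries, with no overlap, and the log2 change was -1.21 ± 0.10 (adjusted p = 1.73e-09). In tumors the direction was the other way: controls held 65.0, 61.1, 61.7 and 53.8 CPM and DDX4-null tumors 73.4, 88.6, 70.0 and 77.3 CPM. All 4 DDX4-null tumors were above all 4 control tumors, yet the log2 change of 0.36 ± 0.10 was not called (edgeR adjusted p = 0.0849). DESeq2 gave an adjusted p of 0.0181 and the model of all 16 libraries 0.0326.

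NFKBIZ encodes IkBζ, a nuclear family member that acts as a coactivator at genes such as IL6. It stood at 209.5, 229, 218 and 182 CPM in control cells and at 80.0, 60.8, 84.1 and 74.6 CPM in DDX4-null cells. The groups were far apart and did not overlap, and the log2 change was -1.48 ± 0.11 (adjusted p = 8.48e-10). Tumor levels were 70.0, 69.1, 56.3 and 53.7 CPM in controls and 85.2, 80.2, 86.7 and 78.4 CPM in DDX4-null libraries, again higher in all 4 DDX4-null tumors. This log2 change of 0.41 ± 0.10 was not called by edgeR (adjusted p = 0.0667), while DESeq2 gave 0.00844 and the model of all 16 libraries 0.0337.

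NFKBIE, the gene of IkBε, differed from the other inhibitors. Its levels were 15.4, 14.4, 17.3 and 19.8 CPM in control cells and 15.4, 17.7, 14.7 and 15.7 CPM in DDX4-null cells. The groups lay over each other, with a log2 change of -0.08 ± 0.12 (adjusted p = 0.599). In tumors it was lower in both genotypes, at 8.90, 9.82, 10.4 and 7.96 CPM in controls and 12.7, 9.14, 10.7 and 8.60 CPM in DDX4-null libraries, which overlapped (log2 change 0.14 ± 0.16, adjusted p = 0.629).

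Per kilobase of exon, NFKBIA was the most abundant of the 10 genes in all 4 groups, at 83.1 CPM per kb in control cells, 35.9 in DDX4-null cells, 25.5 in control tumors and 32.6 in DDX4-null tumors. Within a library, the ratio of NFKBIA to RELA on this scale was 3.18 ± 0.490 in control cells, 1.77 ± 0.308 in DDX4-null cells, 1.03 ± 0.0617 in control tumors and 1.23 ± 0.130 in DDX4-null tumors. The ratio of NFKBIZ to RELA was 1.34 ± 0.0405, 0.620 ± 0.0908, 0.425 ± 0.0383 and 0.529 ± 0.0306 in the same order. In both ratios control cells lay above all other libraries, and in both the DDX4-null tumors lay above all control tumors.

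Of the feedback genes, TNFAIP3 encodes A20, a ubiquitin-editing enzyme that shuts off signalling to IkB kinase. It had the tightest control group of the 10 genes, with 42.9, 42.5, 43.2 and 43.4 CPM, against 34.5, 35.7, 37.0 and 33.9 CPM in DDX4-null cells. The groups did not overlap, and the log2 change was small, -0.29 ± 0.09 (adjusted p = 0.0106). With library totals in place of TMM scaling it was -0.21 and was no longer called (adjusted p = 0.0507). Tumors held 15.9, 15.2, 16.3 and 14.7 CPM in controls and 15.9, 19.6, 14.8 and 17.0 CPM in DDX4-null libraries, which overlapped (log2 change 0.11 ± 0.11, adjusted p = 0.578). Relative to RELA per kilobase, TNFAIP3 was 0.325 ± 0.0423 in control and 0.342 ± 0.0365 in DDX4-null cells, overlapping ranges, and 0.124 ± 0.00853 and 0.126 ± 0.0153 in tumors.

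BIRC3 encodes cIAP2, a ubiquitin ligase at the TNF receptor complex. Control cells held 42.9, 41.0, 43.2 and 44.6 CPM and DDX4-null cells 21.7, 26.1, 29.6 and 29.3 CPM. The groups did not overlap, and the log2 change was -0.69 ± 0.11 (adjusted p = 2.05e-05), or -0.41 relative to its 51 neighbours on chromosome 11. Control tumors held 15.6, 13.5, 14.9 and 13.5 CPM and DDX4-null tumors 7.25, 16.9, 16.7 and 14.9 CPM. DDX4-null tumor 1 was low and the other 3 lay in or above the control range. The log2 change in tumors was -0.03 ± 0.21 (adjusted p = 0.941), and without that library it was 0.18 (adjusted p = 0.416). The same library had the highest summed fibroblast markers, 10944 CPM against at most 1903 CPM in the other DDX4-null tumors, and their part in the result was not tested.

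TNFAIP2, a TNF-induced gene whose product has been tied to cell protrusions, stood at 73.2, 86.1, 87.5 and 77.9 CPM in control cells and at 33.1, 32.6, 31.1 and 29.6 CPM in DDX4-null cells. Control libraries lay far above the DDX4-null libraries, with no overlap (log2 change -1.36 ± 0.10, adjusted p = 4.17e-10). It was the gene of the 10 that was lower in DDX4-null tumors without overlap, with 35.3, 39.0, 34.9 and 32.0 CPM in controls and 23.1, 24.2, 31.8 and 25.2 CPM in DDX4-null tumors. The log2 change of -0.44 ± 0.11 was not called by edgeR (adjusted p = 0.0738). DESeq2 gave 0.0203, the model of all 16 libraries 0.0152, and leaving out DDX4-null tumor 3 a log2 change of -0.55 (adjusted p = 0.0372).

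Counted together, 8 of the 10 genes were lower in DDX4-null cells with no overlap between groups, as were 28.5% of all genes tested. 4 were called and lower by at least 1 on the log2 scale (RELB, NFKBIZ, TNFAIP2 and NFKBIA), as were 8.66% of all genes. Many genes of a chromosome moved together in this comparison. The median log2 change was -0.47 over the 442 genes tested on chromosome 14, which holds NFKBIA and TNFAIP2, and -0.27 over the 741 on chromosome 11, which holds RELA and BIRC3. Minus the median of their chromosome, NFKBIA changed by -0.74, TNFAIP2 by -0.89, BIRC3 by -0.42 and RELA by -0.09. Minus the median of the 51 nearest genes, RELB changed by -1.11 and NFKBIZ by -1.62. All 10 values stayed negative under both centrings, and the part of such regional shifts in each change was not tested.

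**Figure D2:**
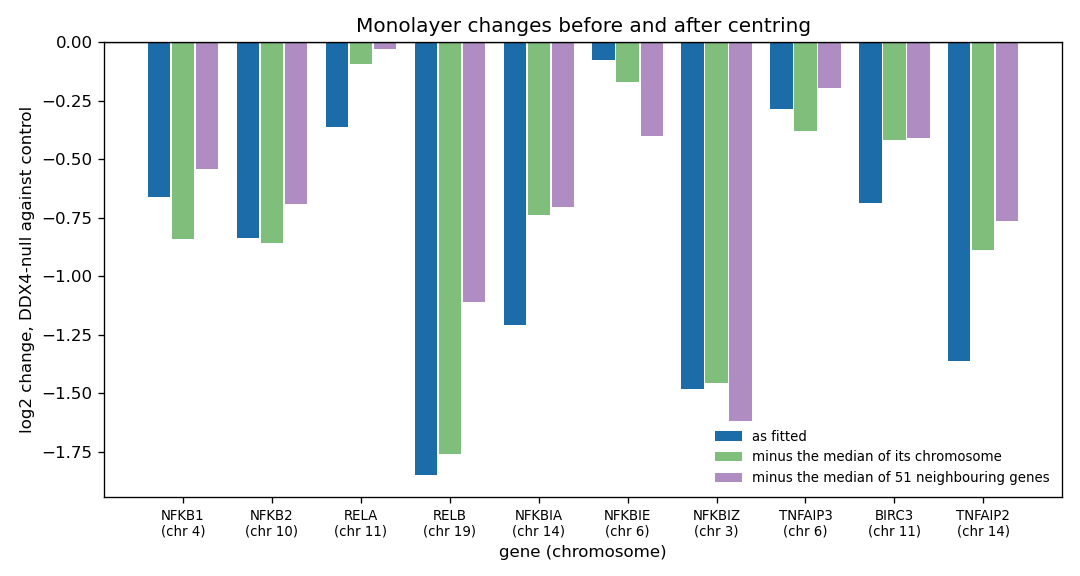
Log2 change of each gene between DDX4-null and control monolayer cells (vertical axis) as fitted, minus the median of all genes tested on its chromosome, and minus the median of the 51 genes around it. The bars of RELA shrink from -0.36 to -0.03, those of NFKBIA and TNFAIP2 on chromosome 14 shrink but stay below -0.7, and NFKBIZ stays near -1.5.

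In tumors, 3 of the 10 genes did not overlap between genotypes: NFKBIA and NFKBIZ were higher and TNFAIP2 lower in DDX4-null libraries. Over all 12942 genes tested, 12.6% did not overlap, 5.59% higher and 7.02% lower. The median log2 change of the 10 genes was 0.10. Relative to the 51 neighbouring genes the values were 0.18 for NFKBIA, 0.25 for NFKBIZ and -0.14 for TNFAIP2. Minus the median of the chromosome they were 0.45, 0.39 and -0.34.

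**Figure D3:**
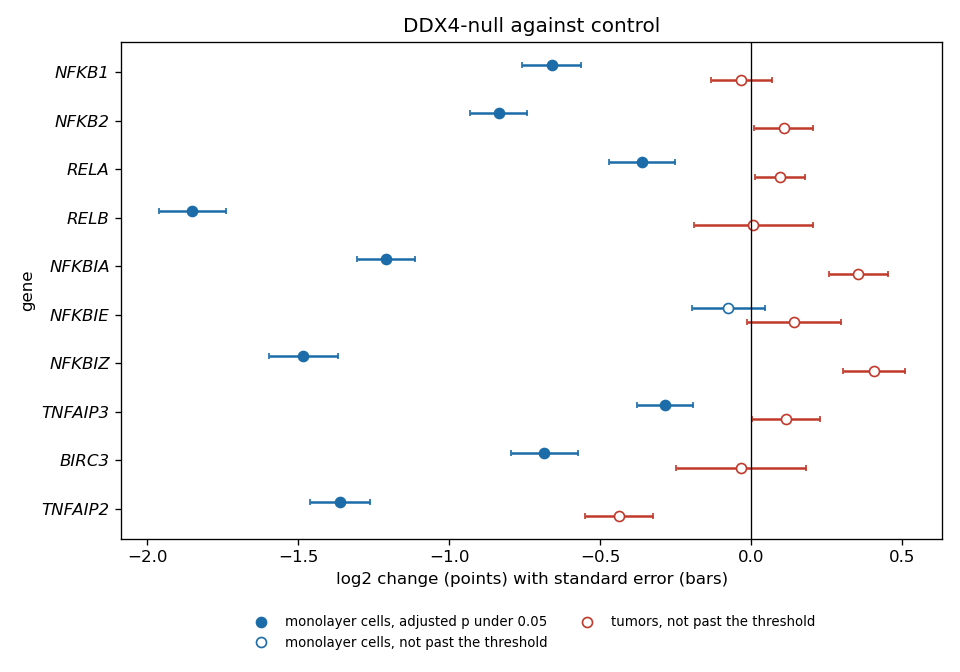
Log2 change between DDX4-null and control libraries (horizontal axis) in monolayer cells and in tumors, with the standard error as bars; filled points have an edgeR adjusted p under 0.05. In monolayer 9 of 10 points are filled and lie below 0, and in tumors none is filled and all lie between -0.44 and 0.41.

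The difference between the genotype effects of both settings was tested in one model of all 16 libraries, as the tumor effect minus the monolayer effect. It was called for 9 of the 10 genes, all positive, where 26.0% of all 13603 genes tested were called positive and 52.8% in either direction. It was largest for NFKBIZ (1.89 ± 0.16, adjusted p = 7.03e-09), RELB (1.86 ± 0.21, adjusted p = 5.52e-07) and NFKBIA (1.57 ± 0.14, adjusted p = 1.31e-08). For NFKB2 it was 0.95 ± 0.13, for TNFAIP2 0.93 ± 0.14 and for NFKB1 0.63 ± 0.13. NFKBIE was not called (0.21 ± 0.19, adjusted p = 0.369). The calls of RELA (0.46 ± 0.14), TNFAIP3 (0.40 ± 0.13) and BIRC3 (0.66 ± 0.23) were lost with library totals in place of TMM scaling, at adjusted p = 0.0872, 0.117 and 0.0914. BIRC3 also lost its call without DDX4-null monolayer 1, DDX4-null tumor 2 or DDX4-null tumor 3, at adjusted p of 0.0514, 0.0566 and 0.0552.

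Control tumors were compared with control cells to set the level of the genes in both settings of growth. The 9 genes called lower did not overlap between groups, as was the case for 28.3% of all genes tested. The 7 with a fall of at least 1 on the log2 scale, against 7.24% of all genes, were RELB (-2.01 ± 0.13), NFKBIZ (-1.75 ± 0.11), NFKBIA (-1.70 ± 0.09), BIRC3 (-1.57 ± 0.09), TNFAIP3 (-1.46 ± 0.09), NFKB1 (-1.29 ± 0.10) and TNFAIP2 (-1.20 ± 0.09). NFKB2 and NFKBIE fell less, by 0.88 and 0.84 on the log2 scale. RELA was not called (-0.09 ± 0.10, adjusted p = 0.424), and its value turned to 0.07 with library totals, a scaling that moved the median of all genes from 0.02 to 0.18. Summed fibroblast, leukocyte and muscle markers, given above, were higher in every tumor than in every culture. Not every single marker was higher. Mean CD68 was 0.319 CPM in control cells and 0.217 CPM in control tumors, and mean MB was 1.04 and 0.265 CPM. The part of other cell types in these falls was not tested.

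Between DDX4-null tumors and DDX4-null cells, 5 of the 10 genes were called, 4 lower and 1 higher, where 69.8% of all 13277 genes tested were called, 35.3% lower and 34.6% higher. TNFAIP3 (-1.05 ± 0.11), BIRC3 (-0.91 ± 0.21), NFKB1 (-0.65 ± 0.10) and NFKBIE (-0.62 ± 0.14) were lower in tumors. RELA was higher, by 0.38 ± 0.10 (adjusted p = 0.00515). Minus the median of chromosome 11 its change was 0.05, and relative to its 51 neighbours -0.15. The other 5 were not called, with log2 changes of 0.15 ± 0.11 for NFKBIZ, 0.08 ± 0.10 for NFKB2, -0.13 ± 0.11 for NFKBIA, -0.15 ± 0.17 for RELB and -0.26 ± 0.12 for TNFAIP2 (adjusted p = 0.0574). Relative to the 51 neighbours, NFKBIZ was 0.16, NFKB2 -0.55, NFKBIA -0.53, RELB -1.25 and TNFAIP2 -0.70. Minus the median of the chromosome, NFKBIZ was 0.18, NFKB2 0.12, NFKBIA -0.50, RELB -0.51 and TNFAIP2 -0.64. The part of regional shifts in these values was not tested. TNFAIP2 was called in the model of all 16 libraries (adjusted p = 0.0212) and without DDX4-null tumor 3 (adjusted p = 0.0100). The comparisons between settings share libraries with those between genotypes, so their values are given side by side and are not independent.

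**Figure D4:**
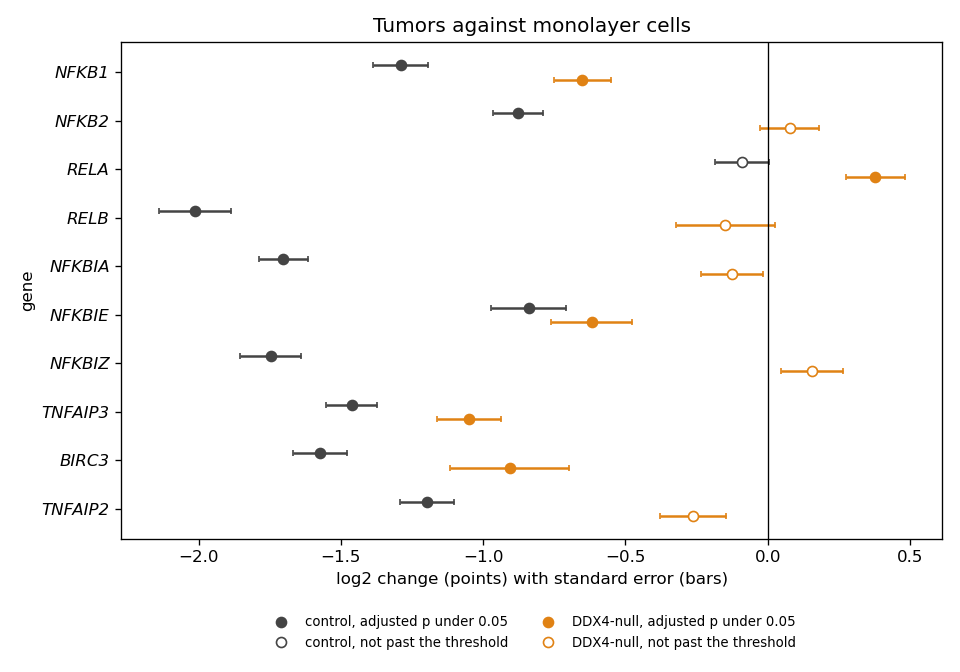
Log2 change between tumors and monolayer cells (horizontal axis) for control and for DDX4-null libraries, with the standard error as bars; filled points have an edgeR adjusted p under 0.05. Control points reach -2.01 for RELB, while the DDX4-null points of RELB, NFKBIA, NFKBIZ, NFKB2 and TNFAIP2 are open and lie between -0.26 and 0.15.

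The order of the 4 groups thus fell into several forms. RELB and NFKB2 were highest in control cells, DDX4-null cells overlapped both tumor groups, and the tumor genotypes overlapped. NFKB1, TNFAIP3 and BIRC3 stepped down from control cells to DDX4-null cells and again to tumors, with no overlap at either step, and the tumor genotypes overlapped. NFKBIE split by setting alone, with overlap between genotypes in cells and in tumors. NFKBIZ and TNFAIP2 were highest in control cells, DDX4-null cells overlapped both tumor groups, and the tumor genotypes did not overlap. DDX4-null tumors were the higher genotype for NFKBIZ and the lower for TNFAIP2. NFKBIA was also highest in control cells and higher in DDX4-null tumors without overlap, but its DDX4-null cells overlapped the DDX4-null tumors alone. RELA had its lowest mean in DDX4-null cells, which overlapped control cells, and its other 3 groups overlapped each other.

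For each of the 7 genes whose group means spanned at least 1 on the log2 scale, the gene with the most similar pattern was sought among 13247 genes. Likeness was the root-mean-square difference of log2 CPM over the 4 group means, each gene centred on its own mean. The nearest gene was THEMIS2 for NFKB1 (0.0197), NARS1 for TNFAIP3 (0.0215), LINC03033 for BIRC3 (0.0352), LONRF3 for TNFAIP2 (0.0439) and IRAK2 for RELB (0.0836). DNAJC1 was nearest to both NFKBIZ (0.0593) and NFKBIA (0.0607). No other of the 10 genes was nearer in any case, but with so many genes searched this says little about likeness among the 10. The genes nearer than the nearest of the 10 numbered 4 for NFKBIZ, 10 for NFKBIA, 29 for RELB and 61 for BIRC3. They numbered 108 for TNFAIP3, 123 for NFKB1 and 223 for TNFAIP2. The closest pair among the 10 was NFKBIA with NFKBIZ (0.117), a likeness over only 4 points.

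Other genes of the pathway were read from 7 lists, whose counts in monolayer stand beside 32.3% of all genes called lower, 35.0% higher and 67.3% in either direction. Of the 4 remaining subunit and IkB genes, 2 fell in DDX4-null cells and none rose. BCL3, an IkB protein that partners p50 and p52, went from 55.7 ± 2.84 to 16.1 ± 2.66 CPM (SD, n = 4; log2 change -1.79 ± 0.11), close in size to RELB. NFKBIB, the gene of IkBβ, went from 25.9 ± 1.63 to 15.2 ± 2.35 CPM (log2 change -0.77 ± 0.12). Among 10 ubiquitin and feedback genes, 5 fell and 1 rose, a called share near the 67.3% of all genes. RBCK1 and RNF31, partners in the linear ubiquitin ligase, changed by -1.17 ± 0.10 and -0.76 ± 0.12, TNIP1, which works with A20, by -0.85 ± 0.09, and CFLAR, an inhibitor of caspase-8, by -0.42 ± 0.10. RNF31 lies on chromosome 14 and changed by -0.29 minus the median of that chromosome.

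Upstream, the lists were mixed in direction, and each called share lay near or above the 67.3% of all genes. Of 9 kinase genes tested, 6 fell and 1 rose: MAP3K8 fell by 1.84, TBK1 by 0.96 and TAB3 by 0.65 on the log2 scale, and TAB1, a partner of the kinase TAK1, rose by 0.80. TAB3 overlapped between groups, and minus the median of the X chromosome it changed by -0.19. IKBKG, MAP3K14 and IKBKE were not analysed here. Of 10 adaptor genes, 6 fell and 3 rose. IRAK2 (-1.67 ± 0.11), which relays interleukin-1 and Toll-like signals, and TRADD (-1.16 ± 0.15), the adaptor of TNF receptor 1, fell, TRAF3 on chromosome 14 changed by -0.83 ± 0.12 and by -0.36 minus its chromosome's median, and TRAF5 rose by 1.11 ± 0.12. Of 11 receptor genes, 3 fell and 5 rose, shares near those of all genes. TLR2 went from 7.16 ± 1.12 to 0.201 ± 0.0738 CPM, and TLR4 from 0.400 ± 0.206 to 14.9 ± 1.29 CPM. TLR3 and IL1R1 also rose, to 2.34 ± 0.362 and 2.57 ± 0.338 CPM.

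Ligands and effector targets were read last. TNF held 0 counts in all 16 libraries, which allows at most 3 counts in each, and LTA, LTB, TNFSF13B and TNFSF11 were below the filter. All 4 ligands tested fell in DDX4-null cells, with IL1B at 927 ± 156 CPM in control and 72.1 ± 8.11 CPM in DDX4-null cells, IL1A at 8.59 ± 0.532 and 1.80 ± 0.211 CPM, and smaller changes of IL33 (-1.04 ± 0.13) and TNFSF12 (-0.71 ± 0.17). Of 15 effector targets, 13 fell and 2 rose, with a median log2 change of -2.31 against -0.76 for the 10 genes. PTGS2, the inducible cyclooxygenase, changed by -6.83 ± 0.15, the cytokine IL6 by -4.26 ± 0.12 and TNFAIP6 by -3.75 ± 0.15. The chemokine gene CCL2 held 1 count over the 4 control libraries and 543 counts over the DDX4-null libraries, a ratio per total count of 485, with a 95% counting interval of 86.7 to 19202.

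In tumors, 2 of 59 tested genes of these lists (3.39%) were called between genotypes, against 2.09% of all genes. BCL3 rose from 21.4 ± 1.02 to 29.7 ± 2.71 CPM (log2 change 0.47 ± 0.09, adjusted p = 0.0321). TRAF3 fell from 53.4 ± 2.62 to 38.5 ± 2.35 CPM (log2 change -0.47 ± 0.08, adjusted p = 0.0180), or -0.38 minus the median of chromosome 14. The medians of the 7 lists lay between -0.13 for effector targets and 0.37 for ligands, and no ligand or effector target was called.

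**Figure D5:**
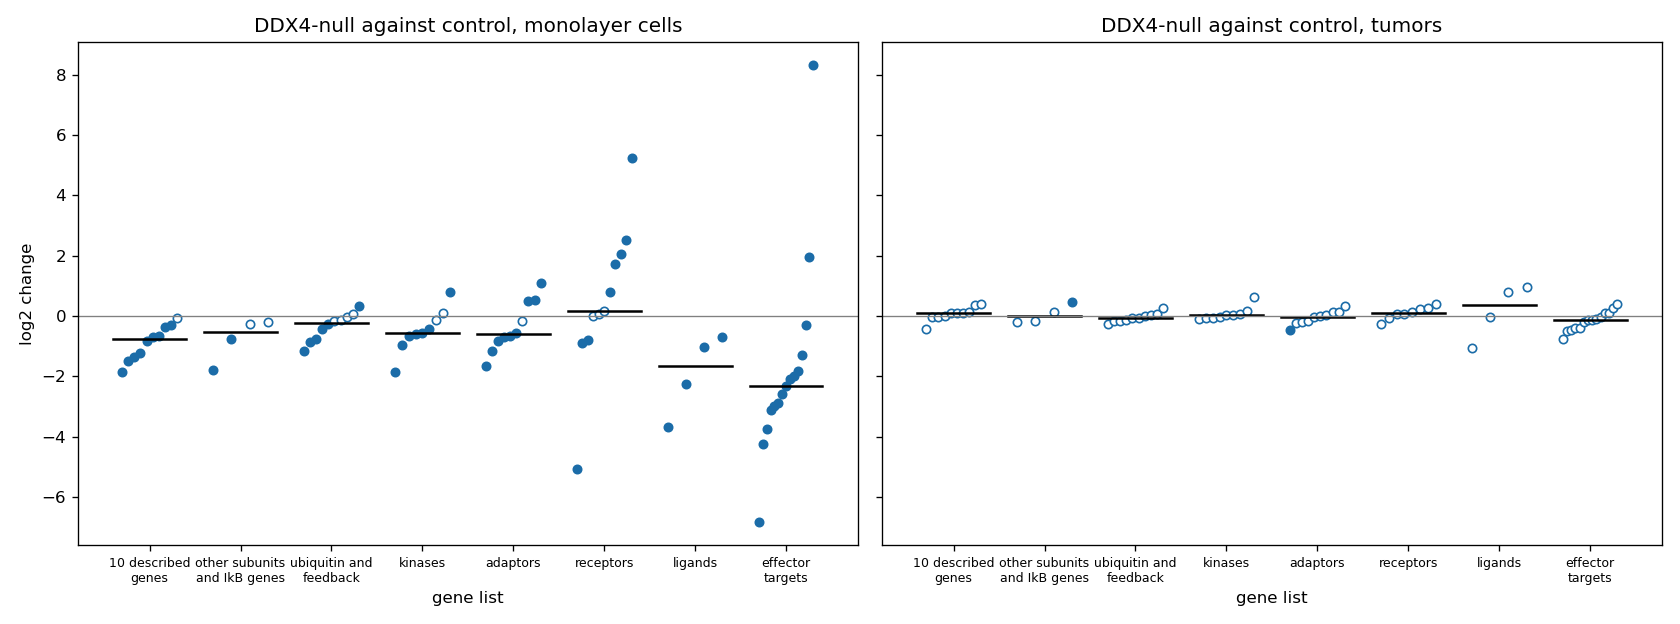
Log2 change between DDX4-null and control libraries (vertical axis) of every tested gene of the 10 described genes and of 7 pathway lists, in monolayer cells (left) and tumors (right); filled points have an edgeR adjusted p under 0.05 and lines are list medians. Medians in monolayer run from -2.31 for effector targets to 0.17 for receptors, and the highest point is CCL2, which rests on 1 count in control cells.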

How the data were processed

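Total RNA, treated with DNase, was made into libraries with a stranded mRNA kit (Illumina TruSeq), per the labels' protocols. The authors deposited raw counts of reads for each Ensembl gene, and these were used unchanged. The submitters' processing notes name Trimmomatic 0.39, STAR 2.7.10a, featureCounts 2.0.3 and the build GRCh37. Not given in the sources used here are the strand setting of the counting, its annotation and whether host reads were removed, so reads of overlapping genes, and host reads that map to human genes, may be part of a count.

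Comparisons of genotypes or settings were fitted on their 8 libraries, and the difference between genotype effects on all 16. The quasi-likelihood test of edgeR 4.0.16 (R 4.3.3) was used with TMM scaling, filterByExpr and Benjamini-Hochberg adjustment over all genes tested, at a threshold of 0.05. Levels are TMM-scaled CPM over 16 libraries. Replicates differed by more than sampling noise. The steps were also run on simulated counts with 200 changed genes, against 8756 genes called in monolayer. Such counts cannot show how the scaling behaves where most genes change. Alternatives were DESeq2 1.42.0, other scalings and filters, the replicate number as a block, one model of 16 libraries, each library left out, and centring by chromosome or on 51 neighbouring genes. Promoter sequences were taken from RefSeq for GRCh38.p14. Exon lengths and chromosomes were looked up by Ensembl ID in GENCODE v29, which uses GRCh38.

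The 10 genes, the gene lists and the tests were chosen with earlier results of these data known. All 10 genes are named. Of each other list the rule named up to 4 called genes with the largest change in monolayer and up to 2 in tumors, with a level of 1 CPM or more in the higher group. For each of the 10 genes spanning at least 1 on the log2 scale it named the gene with the nearest pattern.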

Additional observations from a re-analysis of the deposited data

Results flagged for a closer look

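For 9 of the 10 genes the effect of the DDX4-null state differed between tumors and monolayer cells by the test of that difference in the model of all 16 libraries, where 52.8% of all genes were called and 26.0% were called with a positive difference. On the log2 scale, the tumor effect minus the monolayer effect was 1.89 for NFKBIZ, 1.86 for RELB, 1.57 for NFKBIA, 0.95 for NFKB2, 0.93 for TNFAIP2, 0.66 for BIRC3, 0.63 for NFKB1, 0.46 for RELA and 0.40 for TNFAIP3. Relative to the median of 51 neighbouring genes these values were 1.94 for NFKBIZ, 1.16 for RELB, 1.00 for NFKBIA, 0.81 for NFKB2, 0.58 for TNFAIP2, 0.32 for BIRC3, 0.54 for NFKB1, 0.10 for RELA and 0.39 for TNFAIP3. No library passed Dixon's 95% critical value in the 40 sets of 4 libraries examined, one for each gene and group. The widest gap was that of BIRC3 in DDX4-null tumors, where the gap between tumor 1 and the next library made up 0.794 of the range of the group.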

How the results depend on the processing

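In monolayer, 8 to 9 of the 10 genes were called under every alternative, in control tumors against control cells 9, in DDX4-null tumors against DDX4-null cells 5 to 6, and for the difference between genotype effects 6 to 9. Between tumor genotypes the counts depended on the method, and the cause was not tested. edgeR called 270 genes and none of the 10, DESeq2 880 genes and 3 of the 10, and the model of all 16 libraries 808 and 3. Leaving out 1 library gave 26 genes (without control tumor 3) to 289 genes and 0 to 1 of the 10. Of the tumor calls, 47.0% were higher as fitted, 36.6% with library totals, 58.2% in the model of all 16 libraries and 60.7% with the replicate block. With library totals, 66.0% of calls of control tumors against control cells were higher, against 52.2% with TMM, and the median of all genes for the difference between genotype effects moved from -0.02 to -0.16. The labels do not say that replicate numbers pair libraries. Deviations of same-numbered libraries correlated at -0.27 to 0.44 in monolayer and, all above 0, at 0.06 to 0.21 in tumors, where 3 of 4 exceeded 0.1. These values do not settle whether the numbers mark pairs in tumors. The main fits took no pairs, since the labels name none. With the replicate block, 425 genes and 0 of the 10 were called between tumor genotypes, and 8883 genes and 9 of the 10 in monolayer. Directions that turned were all of uncalled values or of centred values. Without control monolayer 4, NFKBIE in monolayer was 0.0098. In tumors RELB was -0.052 with library totals and -0.096 to 0.14 with single libraries left out, BIRC3 -0.13 to 0.18 and NFKB1 -0.076 to 0.049. RELA was 0.071 with library totals in control tumors against control cells, and -0.15 relative to its neighbours in DDX4-null tumors against DDX4-null cells. NFKB2 was -0.55 relative to its neighbours in the latter comparison, against 0.08 as fitted. Minus the chromosome median, RELA and NFKB2 did not turn in that comparison, at 0.05 and 0.12. RELB was -0.015 relative to its neighbours between tumor genotypes.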
